A study of Mus musculus with 7 samples.

Results

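The 34 genes described here encode the hypoxia response and glycolysis: 16 glycolytic enzymes, the flux regulators Pfkfb3 and Pdk1, the glucose transporter Slc2a1 and the lactate exporter Slc16a3, the hypoxia-inducible factor (HIF) subunits Hif1a and Epas1, the HIF prolyl hydroxylases Egln1 and Egln3, and 10 other HIF targets. They were chosen by function, with earlier results of these data known, and their mouse symbols were matched to the Ensembl gene IDs of a count table of 54446 genes. All 34 were matched, and all 34 were among the 16438 genes that passed the filter on low counts. RNA was sequenced from pancreatic spheroids, which are epithelial cultures grown in 3 dimensions, derived from wild-type C57BL/6J mice. Of the 7 libraries, 4 were from mice that had earlier received caerulein (post-caerulein), a peptide that overstimulates acinar cells and so induces pancreatitis, and 3 were from mice left untreated. All 7 carry the same medium in their labels, with 5 mg/ml D-glucose, 20 ng/ml EGF, insulin and hydrocortisone, and no step in the labels withholds oxygen or glucose. The labels give neither the age of the mice, nor the time since caerulein, nor whether each library is a separate mouse or culture. The p-values therefore measure only how far these libraries spread, and that spread may be technical.

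Glycolysis splits glucose into pyruvate in the cytosol, and lactate dehydrogenase can turn that pyruvate into lactate, which leaves the cell through monocarboxylate transporters. When oxygen is low, the prolyl hydroxylases no longer mark the HIF alpha subunits for destruction, and the stabilised subunits pair with Arnt and bind hypoxia response elements in genes for glycolysis, angiogenesis, pH control and mitophagy. Control of the alpha subunits is mainly at the protein level, which these data do not measure. Several of the same genes also respond to growth factors, glucocorticoids or nutrient stress. In the pancreas, ductal and cancer cells are known for high use of glucose, and Car9 and Slc2a1 are widely used as hypoxia markers there.

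Total counts ranged from 34783738 to 46744497 in post-caerulein and from 41241985 to 46260577 in untreated libraries, so that 3 counts, the limit a count of 0 allows, equal 0.0630 to 0.0841 CPM (counts scaled to library size by TMM). The label of pancreatic epithelium was borne out by 8 ductal and epithelial markers, which summed to 13666 to 20921 CPM in post-caerulein and 13421 to 15191 CPM in untreated libraries. Acinar markers summed to at most 11.8 CPM in post-caerulein and 0.695 CPM in untreated libraries, with Amy2a5 at 0 in all 7. Islet markers reached at most 4.51 CPM in post-caerulein and 0.400 CPM in untreated libraries, and endothelial markers at most 1.87 CPM in post-caerulein and 1.82 CPM in untreated libraries. Fibroblast markers summed to 2.97 to 7.27 CPM in post-caerulein libraries, against 0.272, 0.126 and 21.1 CPM in untreated 1, 2 and 3. The leukocyte sum, 11.8 to 35.4 CPM in post-caerulein and 20.6 to 97.9 CPM in untreated libraries, was nearly all Cd68, a lysosomal gene, and Ptprc was at or near 0. Post-caerulein 2 and 3 were very alike, with a coefficient of variation beyond counting of 5.74%, as were untreated 1 and 2 with 8.44%, while no other pair of libraries was under 21.9%. Both close pairs still differed by more than sampling noise (chi-square per gene of 10.2 and 12.4), and each library was counted once.

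Members with a higher and with a lower level in post-caerulein libraries were about equal in number. Transcripts of the mTORC1 inhibitor Ddit4 fell in post-caerulein spheroids relative to untreated ones once the library block used in the authors' table was taken into account, and edgeR's quasi-likelihood test passed no other member. DESeq2 with the same block called 6 members (Adm, Ddit4, Epas1, Hk1, Pdk1 and Slc16a3), where it called 8.31% of all genes. With the group as the only term, edgeR's quasi-likelihood test called 0 of 34 members, where it called 0% of all 16438 genes. At an unadjusted p under 0.05 it had 4 members, Hk1, Aldoc, Epas1 and Ankrd37, where 9.5% of all genes were below that value, and DESeq2 with the group only called 1 member, Epas1, where it called 3.1% of all genes. In the edgeR fit with the group only, 19 members had a positive and 15 a negative log2 change, with a median of 0.06 and a range from -1.08 to 1.20, beside a median of -0.02 over all genes. In bulk RNA, fewer cells of a type and less RNA per cell cannot be told apart.

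A block term that sets post-caerulein 4 and untreated 3 apart from the other 5 libraries gives back the log2 fold changes of the authors' deposited table to within 3.16e-08, and a likelihood ratio test with it calls the same 1023 genes. The labels do not say what this block is, so it is used here as a second model. With it the quasi-likelihood test called 1 of 34 members, lower in post-caerulein libraries, where 1.53% of all genes were called (0.876% lower and 0.651% higher), and the median of the members was 0.05 (all genes 0.00). The authors' deposited table lists 33 members and has 5 of them below a false discovery rate of 0.05 (Slc16a3 and Epas1 higher, Hk1, Adm and Ddit4 lower), where 7.88% of its 12983 genes are below it.

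**Figure D1:**
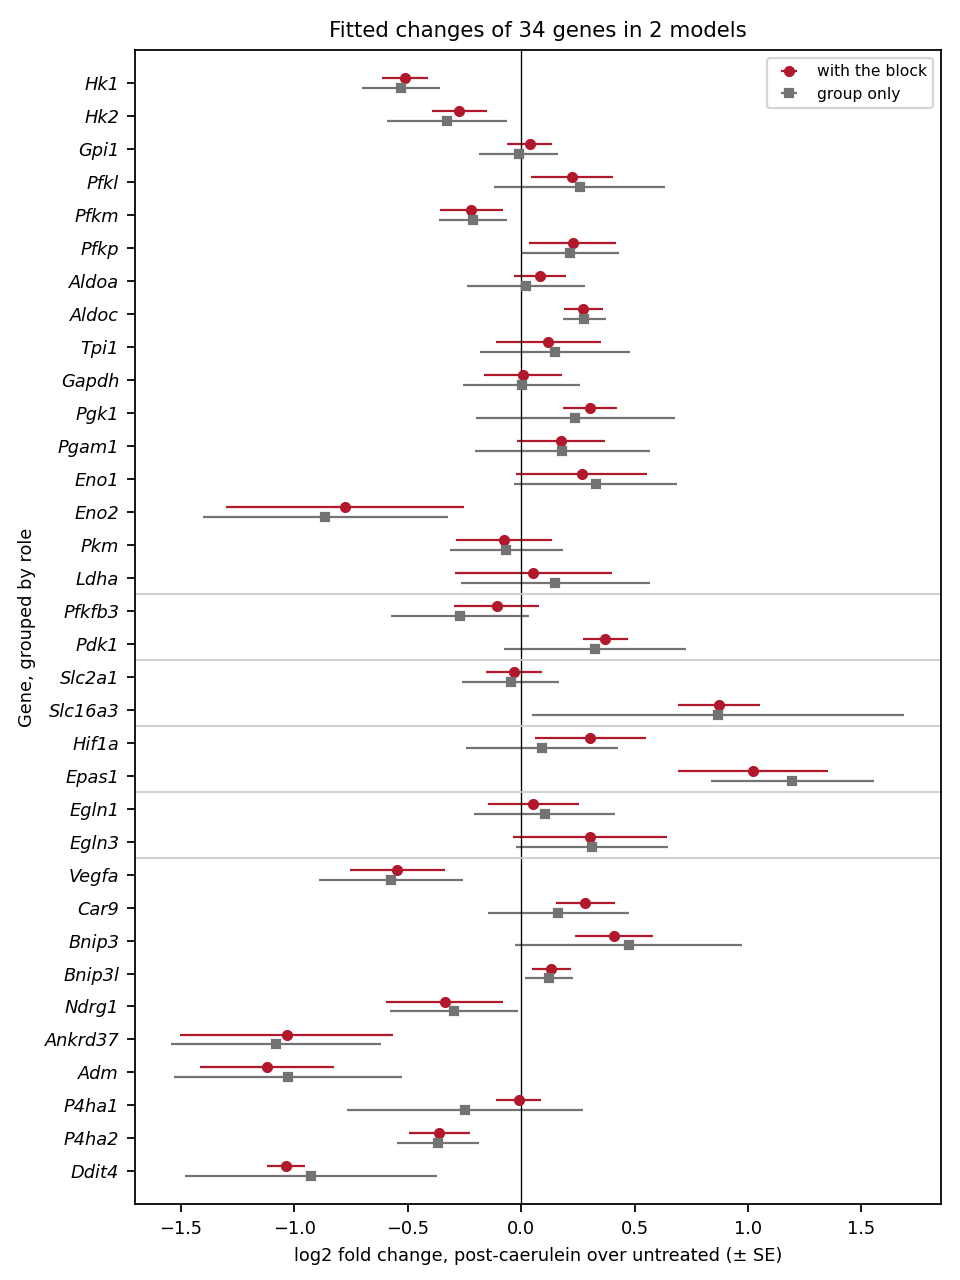
Fitted log2 fold changes, post-caerulein over untreated (x axis, ± SE), of the 34 genes (rows, grouped by role) in the model with the block (red circles) and with the group only (grey squares). Most genes lie near 0 in both models, and Ddit4 at -1.04 with the block has the narrowest error of the genes with large changes.

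The genes for the oxygen-regulated HIF subunits differed in where they were high. Epas1, which encodes HIF-2 alpha (chromosome 17, 86753907 to 86833410, plus strand, GRCm38), was at 254, 224, 259.8 and 85.2 CPM in post-caerulein 1 to 4, against 87.6, 82.3 and 99.4 CPM in untreated 1 to 3. Post-caerulein 1, 2 and 3 thus stood well above every other library, and post-caerulein 4 lay among the untreated ones, so the groups overlapped. The log2 change was 1.20 ± 0.36 (SE) with the group only (adjusted p = 0.322, edgeR quasi-likelihood) and 1.02 ± 0.33 with the block (adjusted p = 0.170), while the authors' deposited table gives 1.03 with a false discovery rate of 0.00535. Within the 5 libraries of the larger block (post-caerulein 1, 2 and 3 against untreated 1 and 2) it was 1.56 (adjusted p = 0.000461, edgeR quasi-likelihood), and without post-caerulein 4 the group-only change was 1.46 (adjusted p = 0.0278). Between post-caerulein 4 and untreated 3 the log2 difference was -0.22, opposite in sign and without replicates. Islet markers summed to 3.11, 3.69 and 4.51 CPM in the 3 libraries with high Epas1 and to 0.462 CPM in post-caerulein 4, with 0.0247 to 0.400 CPM in the untreated libraries, and their part in the Epas1 difference was not tested. Endothelial cells also express Epas1. Their 5 markers summed to under 2 CPM in every library, and the part of these cells in the Epas1 difference was not tested.

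Hif1a, the gene of HIF-1 alpha, was at 282, 287, 296 and 303 CPM in the post-caerulein libraries, against 189.9, 169 and 463 CPM in untreated 1, 2 and 3. The 4 post-caerulein values were close to each other and lay between the low pair and the high library of the untreated group. The log2 change was 0.09 ± 0.33 with the group only and 0.30 ± 0.24 with the block (SE, adjusted p = 0.971 and 0.594, edgeR quasi-likelihood). Without untreated 3 Hif1a was the member that the group-only test called, and it was also called in the larger block alone. Per length, in TPM computed from the counts and the exonic lengths of the count table, Epas1 made up 48.0, 44.4 and 47.4% of the Hif1a and Epas1 sum in post-caerulein 1, 2 and 3 and 22.4% in post-caerulein 4, against 32.1, 33.4 and 18.04% in untreated 1, 2 and 3. Epas1 thus took its largest shares in post-caerulein 1 to 3.

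Of the prolyl hydroxylases, which use oxygen to tag HIF alpha for degradation and are themselves HIF targets, Egln3 was at 219.6, 99.7, 115 and 227 CPM in post-caerulein and 164, 136 and 99.4 CPM in untreated libraries. It was high in post-caerulein 1 and 4 and low in the other post-caerulein pair, so the spread within the group was larger than the difference between groups. Egln1 was at 38.3 to 45.7 CPM in post-caerulein 1 to 3 and at 95.2 CPM in post-caerulein 4, while untreated libraries lay between 49.7 and 54.1 CPM. Per length Egln3 was the higher of the pair in every library, at 76.3 to 86.6% of their sum in post-caerulein and 71.3 to 81.2% in untreated libraries.

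Slc16a3 encodes MCT4, the exporter of lactate in glycolytic cells (chromosome 11, 120948480 to 120960868, plus strand). It was at 9.53, 8.93, 6.72 and 47.3 CPM in post-caerulein 1 to 4, against 4.97, 5.42 and 19.4 CPM in untreated 1 to 3. Post-caerulein 4 and untreated 3 were the highest libraries of their groups, and inside each block every post-caerulein library was above the untreated ones. The log2 change with the block was 0.87 ± 0.18 (SE, adjusted p = 0.0661, edgeR quasi-likelihood), just outside the threshold, and the authors' deposited table gives 0.88 with a false discovery rate of 0.0030. With the group only it was 0.87 ± 0.82 (adjusted p = 0.850), and without post-caerulein 4 that value was -0.24. Slc2a1 (GLUT1), the glucose importer of most proliferating cells, was at 268, 228, 226 and 389 CPM in post-caerulein and 284, 248 and 328 CPM in untreated libraries, with a log2 change of -0.03 ± 0.12 with the block.

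Glycolytic enzymes included some of the most abundant transcripts of these cultures. Per length, Gapdh averaged 2693 ± 874 TPM in post-caerulein (SD, n = 4) and 2682 ± 201 TPM in untreated libraries (SD, n = 3), rank 38 among all genes, and Aldoa 2592 ± 678 TPM in post-caerulein and 2531 ± 615 TPM in untreated libraries, rank 42. Pkm (post-caerulein 1614 ± 502, untreated 1691 ± 89.0 TPM), Ldha (post-caerulein 988 ± 588, untreated 895 ± 83.1 TPM), Pgk1 (post-caerulein 873 ± 480, untreated 731 ± 311 TPM) and Eno1 (post-caerulein 888 ± 452, untreated 710.1 ± 43.4 TPM) followed in that order of their mean over 7 libraries. Gapdh and Aldoa lay within an SD of each other, as did the neighbours Ldha and Pgk1 and the neighbours Pgk1 and Eno1, whereas the untreated values of Aldoa, Pkm and Ldha were apart by more than their SDs. The spread was wide among post-caerulein libraries: Ldha, which makes lactate, was at 806, 409, 437 and 1397 CPM there, against 710.4, 705 and 644 CPM in untreated libraries. Post-caerulein 2 and 3 were the lowest and post-caerulein 4 the highest of the 7 for Ldha. Pkm, the pyruvate kinase of most dividing cells, was at 1916, 1249.8, 1246 and 2401 CPM in post-caerulein and 1814, 1776 and 1755 CPM in untreated libraries, again with post-caerulein 2 and 3 lowest and post-caerulein 4 highest. Gapdh was at 1714, 1203, 1231 and 2385 CPM in post-caerulein libraries and 1568, 1478 and 1846 CPM in untreated ones, so this common reference gene varied among these cultures. None of the 16 enzymes passed the test in either model, and 10 had a positive and 6 a negative group-only change (median 0.09).

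Of the hexokinases, which trap glucose as its phosphate, the members Hk1 and Hk2 were lower in each block. Hkdc1, a hexokinase gene of the wider list below, went the other way. It was higher in each block, with a log2 change of 0.56 ± 0.17 with the block (SE, adjusted p = 0.146, edgeR quasi-likelihood). Hk1 (chromosome 10, 62268855 to 62379908, minus strand) was at 222, 229.5, 238 and 337 CPM in post-caerulein libraries, against 370.4, 331 and 409.9 CPM in untreated ones. Only post-caerulein 4 reached the untreated range, by passing untreated 2. Its log2 change was -0.51 ± 0.10 with the block (SE, adjusted p = 0.0618, edgeR quasi-likelihood) and -0.53 ± 0.17 with the group only (adjusted p = 0.360), while the authors' deposited table gives -0.50 with a false discovery rate of 0.0173. Hk2, the insulin- and HIF-responsive isozyme, was at 55.8, 74.5, 70.8 and 112 CPM in post-caerulein and 89.4, 75.5 and 129 CPM in untreated libraries, with a log2 change of -0.27 ± 0.12 with the block (adjusted p = 0.304). Hk1 made up most of the pair per length, at 77.7 to 82.2% in post-caerulein and 78.6 to 83.5% in untreated libraries.

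Aldoc, the aldolase isozyme best known from brain (chromosome 11, 78322968 to 78327781, plus strand), was the single member whose groups did not overlap, where 9.31% of all tested genes did not. It was at 54.4, 50.6, 49.1 and 50.5 CPM in post-caerulein libraries, against 45.3, 41.7 and 39.5 CPM in untreated libraries, with means of 51.2 ± 2.28 and 42.2 ± 2.92 CPM in post-caerulein and untreated libraries (SD, n = 4 and 3). The difference was small, at 0.27 ± 0.08 on the log2 scale with the block (adjusted p = 0.154, edgeR quasi-likelihood), and Aldoc gave only 1.15 to 2.01% of aldolase TPM in post-caerulein and 0.957 to 1.66% in untreated libraries, the rest being Aldoa. Among the phosphofructokinases, which catalyse the committed step of glycolysis, the liver isozyme Pfkl was at 209, 159, 158 and 436 CPM in post-caerulein and 177, 175 and 251 CPM in untreated libraries. Pfkl and the platelet isozyme Pfkp were near parity per length in 5 libraries, where Pfkl took 45.3 to 48.0% of the sum of the 3 isozymes. In post-caerulein 4 and untreated 3 Pfkl took 68.0 and 66.6%. Pfkp itself was at 174 to 242 CPM in post-caerulein libraries and 119 to 216 CPM in untreated ones. The muscle isozyme Pfkm, at 13.7 to 18.7 CPM in post-caerulein and 18.3 to 20.9 CPM in untreated libraries, never exceeded 6.99% of the 3, and the neuronal enolase Eno2 stayed under 1 CPM in every library. Exons of Pfkp and Pfkm overlap those of Pitrm1 and Senp1 on the opposite strand, and no source used here gives the strand setting of the counting, so their levels are uncertain.

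**Figure D2:**
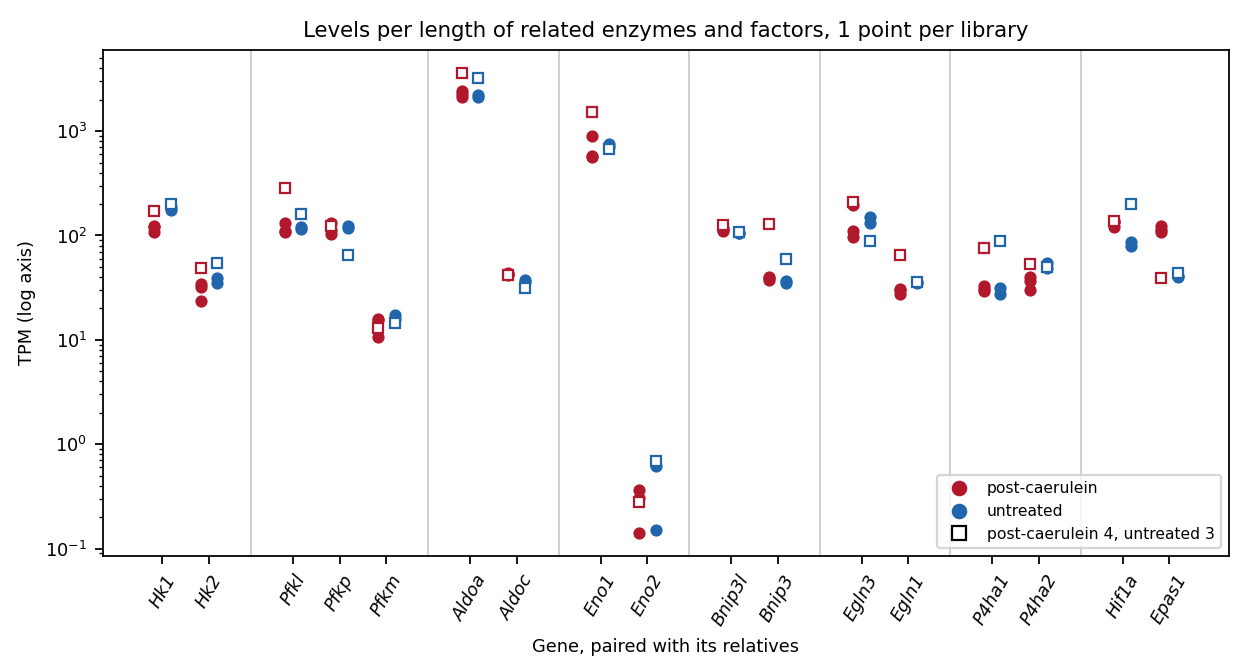
Level per length (TPM, log axis) of related enzymes and factors, with 1 point per library (post-caerulein red, left of each pair; untreated blue, right). Open squares are post-caerulein 4 and untreated 3, where Pfkl exceeds Pfkp by the widest margins and where Bnip3 and P4ha1 are highest in their groups.

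Pgk1, Eno1, Pgam1 and Tpi1 were like Ldha highest in post-caerulein 4, as were Pfkl, Aldoa, Gapdh and Pkm. Pgk1, a phosphoglycerate kinase and a classical HIF target, was at 533, 424, 446 and 1179 CPM in post-caerulein and 409, 389.8 and 844 CPM in untreated libraries. Each post-caerulein library was above the untreated libraries of its own block, yet the log2 change of 0.30 ± 0.12 with the block did not pass (SE, adjusted p = 0.245, edgeR quasi-likelihood). Eno1 was at 964, 569.8, 566 and 1579 CPM in post-caerulein libraries and between 721 and 744 CPM in untreated ones. Pgam1 was at 60.7 to 177 CPM in post-caerulein and 73.8 to 115 CPM in untreated libraries, and Tpi1 was at 270.4 to 686 CPM in post-caerulein and 350.1 to 414 CPM in untreated ones. Gpi1, which opens the pathway after hexokinase, was at 589 to 767 CPM in post-caerulein and 550.2 to 828 CPM in untreated libraries. Pgam1, Tpi1, Gpi1 and Aldoa had log2 changes between 0.04 and 0.17 with the block, and Eno1 one of 0.27. Pseudogenes of any class with at least 95% identity over 200 bases to these genes drew few reads beside them. Their reads were 1.14% of the Gapdh count for 122 Gapdh pseudogenes and 0.815% or less for the 10 other members that have any.

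Of the regulators that steer pyruvate and fructose 6-phosphate, Pdk1, which restrains pyruvate entry to the mitochondrial oxidation, was at 63.6, 56.2, 56.2 and 141 CPM in post-caerulein and 48.2, 48.8 and 93.1 CPM in untreated libraries. It too was higher in each block, with a log2 change of 0.37 ± 0.10 with the block (SE, adjusted p = 0.110, edgeR quasi-likelihood). Pfkfb3, which makes the activator of phosphofructokinase, was at 173 to 243 CPM in post-caerulein libraries, against 185, 169 and 393 CPM in untreated 1, 2 and 3. Untreated 3 alone stood apart for Pfkfb3, and the log2 change was -0.11 ± 0.19 with the block (adjusted p = 0.831).

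Among the other HIF targets, Ddit4 was the member that passed. Ddit4 encodes REDD1, which restrains mTORC1 and is induced by hypoxia, glucocorticoids and other stresses (chromosome 10, 59949669 to 59951834, minus strand). It was at 257, 278, 261 and 72.3 CPM in post-caerulein 1 to 4, against 559, 531 and 148 CPM in untreated 1 to 3. The means were 217 ± 96.9 CPM in post-caerulein (SD, n = 4) and 413 ± 229.8 CPM in untreated libraries (SD, n = 3), so the groups overlapped. Post-caerulein 4 and untreated 3 were the lowest of all, and post-caerulein 4 was at 0.489 of the untreated 3 level. The log2 difference was nearly the same in both blocks, at -1.04 for the 5 libraries of the larger block and -1.03 for the remaining pair. With the block Ddit4 fell by 1.04 on the log2 scale (SE 0.08, adjusted p = 0.0074, edgeR quasi-likelihood), and the authors' deposited table gives -1.02 with a false discovery rate of 1.41e-09. With the group only the change was -0.93 ± 0.56 (adjusted p = 0.699). The call with the block was lost without untreated 1 (adjusted p = 0.120, edgeR quasi-likelihood), untreated 2 (0.0947) or post-caerulein 3 (0.0746) and when the close pairs were summed (0.422), with log2 changes of -1.01 to -1.06 in these settings.

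**Figure D3:**
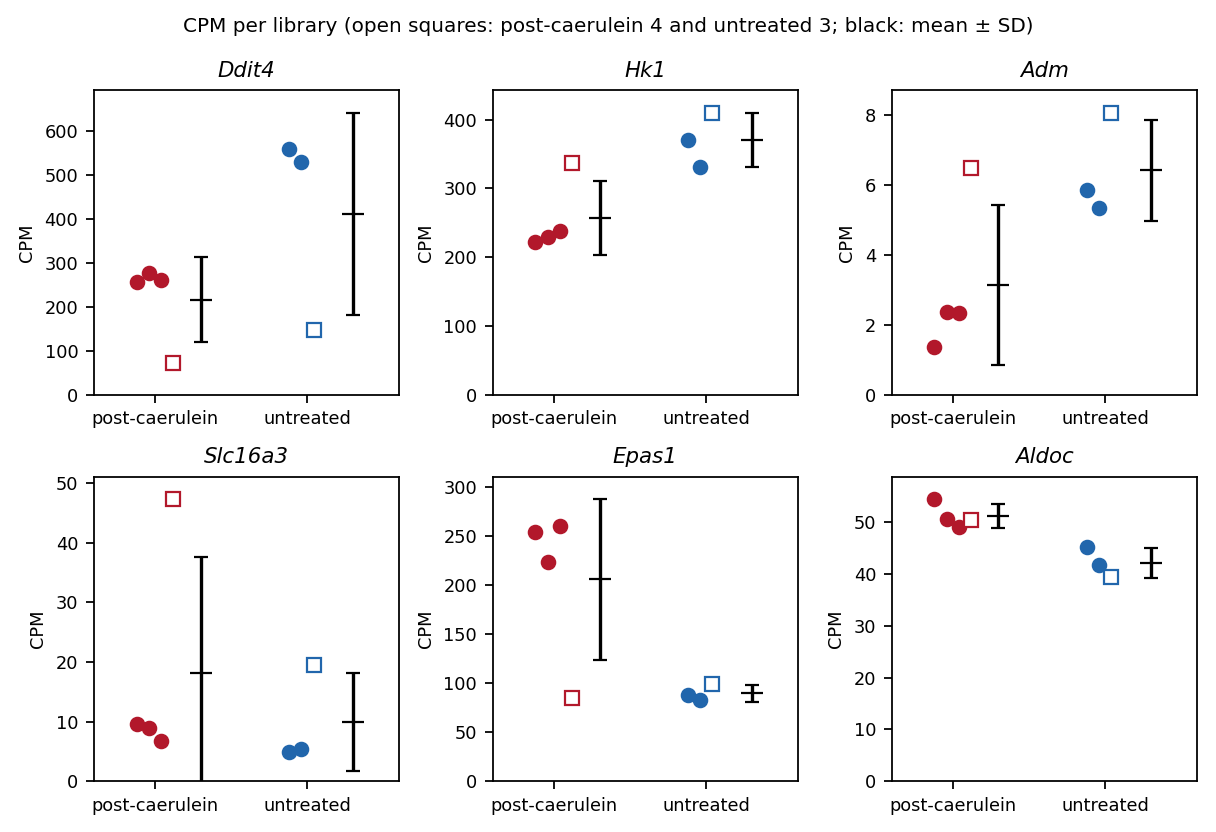
CPM per library of 6 genes (linear axes from 0), post-caerulein left in red (n = 4) and untreated right in blue (n = 3), with mean ± SD in black, cut at 0 for Slc16a3. Open squares are post-caerulein 4 and untreated 3: within circles and within squares Ddit4, Hk1 and Adm are lower and Slc16a3 is higher in post-caerulein libraries, whereas Epas1 is higher among the circles only.

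Among the members, the secreted targets Adm and Vegfa were lower in both blocks without passing edgeR's quasi-likelihood test. Adm, the vasodilator peptide adrenomedullin (chromosome 7, 110627661 to 110629820, plus strand), was at 1.37, 2.36, 2.34 and 6.49 CPM in post-caerulein and 5.86, 5.33 and 8.07 CPM in untreated libraries. Its log2 change was -1.12 ± 0.30 with the block (SE, adjusted p = 0.108, edgeR quasi-likelihood), and the authors' deposited table gives -1.11 with a false discovery rate of 0.0171. Vegfa, the angiogenic growth factor, was at 94.3, 169, 171 and 263 CPM in post-caerulein and 227, 225 and 327 CPM in untreated libraries. Post-caerulein 1 was the lowest and untreated 3 the highest, and the log2 change was -0.55 ± 0.21 with the block (adjusted p = 0.236).

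The mitophagy receptor genes Bnip3 and Bnip3l and the carbonic anhydrase gene Car9, whose product acidifies the outside of the cell, lay higher in each block. Bnip3 was at 30.8, 27.3, 29.5 and 97.2 CPM in post-caerulein libraries, against 26.4, 26.3 and 47.2 CPM in untreated libraries, a log2 change of 0.41 ± 0.17 with the block (SE, adjusted p = 0.278, edgeR quasi-likelihood). Outside post-caerulein 4 and untreated 3 its values differed little. Bnip3l was steadier, at 144 to 167 CPM in post-caerulein and 135 to 150.0 CPM in untreated libraries, so that Bnip3 took 50.7% of the pair per length in post-caerulein 4 and 35.7% in untreated 3 but 24.7 to 26.6% in the other 5. Car9 was at 319, 241, 261 and 434 CPM in post-caerulein and 205, 214 and 422 CPM in untreated libraries, a log2 change of 0.28 ± 0.13 with the block (adjusted p = 0.317). Per length Car9 was rank 373 among all genes, with a mean of 364 TPM over the 7 libraries.

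The collagen prolyl 4-hydroxylase genes P4ha1 and P4ha2 did not pass in either model. P4ha1 was at 51.2, 52.9 and 50.005 CPM in post-caerulein 1 to 3 and 126 CPM in post-caerulein 4, against 45.9, 49.5 and 155 CPM in untreated 1, 2 and 3, and its log2 change with the block was -0.01 ± 0.10. P4ha2 was at 29.8, 33.2, 37.2 and 50.7 CPM in post-caerulein and 46.1, 49.7 and 49.9 CPM in untreated libraries. Its log2 change was -0.36 ± 0.13 with the block (SE, adjusted p = 0.221, edgeR quasi-likelihood), and post-caerulein 4 lay slightly above untreated 3. Ndrg1, a stress-responsive gene, was at 197, 148, 162 and 324 CPM in post-caerulein libraries, against 303, 252 and 211 CPM in untreated libraries, and Ankrd37 at 1.62 to 3.38 CPM in post-caerulein and 2.29 to 7.59 CPM in untreated libraries. Neither passed in either model, and the exons of Ankrd37 overlap those of the more strongly read Ufsp2 on the opposite strand. In the larger block alone 8 of 34 members were called (Hif1a and Epas1 higher, Hk1, Ddit4, Adm, Ankrd37, Ndrg1 and P4ha2 lower), where 13.8% of all genes were called. That comparison rests on untreated 1 and 2 and on post-caerulein 2 and 3, the close pairs.

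Many members were ordered by the block over the 7 libraries. Post-caerulein 4 and untreated 3 were both above the other 5 for 19 of 34 members, where 17.9% of all tested genes had that order, and both below them for 1, Ddit4 (18.2% of all genes). The 19 were Hk2, Gpi1, Pfkl, Aldoa, Gapdh, Pgk1, Pgam1, Pfkfb3, Pdk1, Slc2a1, Slc16a3, Hif1a, Egln1, Vegfa, Car9, Bnip3, Adm, P4ha1 and P4ha2. The ratio of the highest to the lowest library ranged from 1.24 for Bnip3l to 9.51 for Slc16a3, with 7.73 for Ddit4. Post-caerulein 4 was the highest of all 7 libraries for 19 members, 9 of them enzymes, where 16.6% of all genes were highest there. The members took 1.78% of all counts in post-caerulein 4 and 0.955 to 1.16% in the other post-caerulein libraries, against 1.34% in untreated 3 and 1.11 to 1.12% in the other untreated ones. Fibroblast markers were also highest in untreated 3, but were lower in post-caerulein 4 (6.95 CPM) than in post-caerulein 2 (7.27 CPM), and their part in this pattern was not tested.

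Inside the blocks, 12 members had every post-caerulein library on the same side of the untreated libraries of its block, which is 35.3% of 34 where 23.5% of all tested genes had such an order. Higher were Slc16a3, Pdk1, Pgk1, Aldoc, Car9, Bnip3 and Bnip3l (7 members, 11.4% of all genes), and lower were Hk1, Hk2, Vegfa, Adm and Ddit4 (5 members, 12.2% of all genes). The HIF targets among the members were thus found on both sides, with the lactate exporter and Pdk1 on the higher and Ddit4, Adm and Vegfa on the lower side. The order is a description of these 7 libraries.

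**Figure D4:**
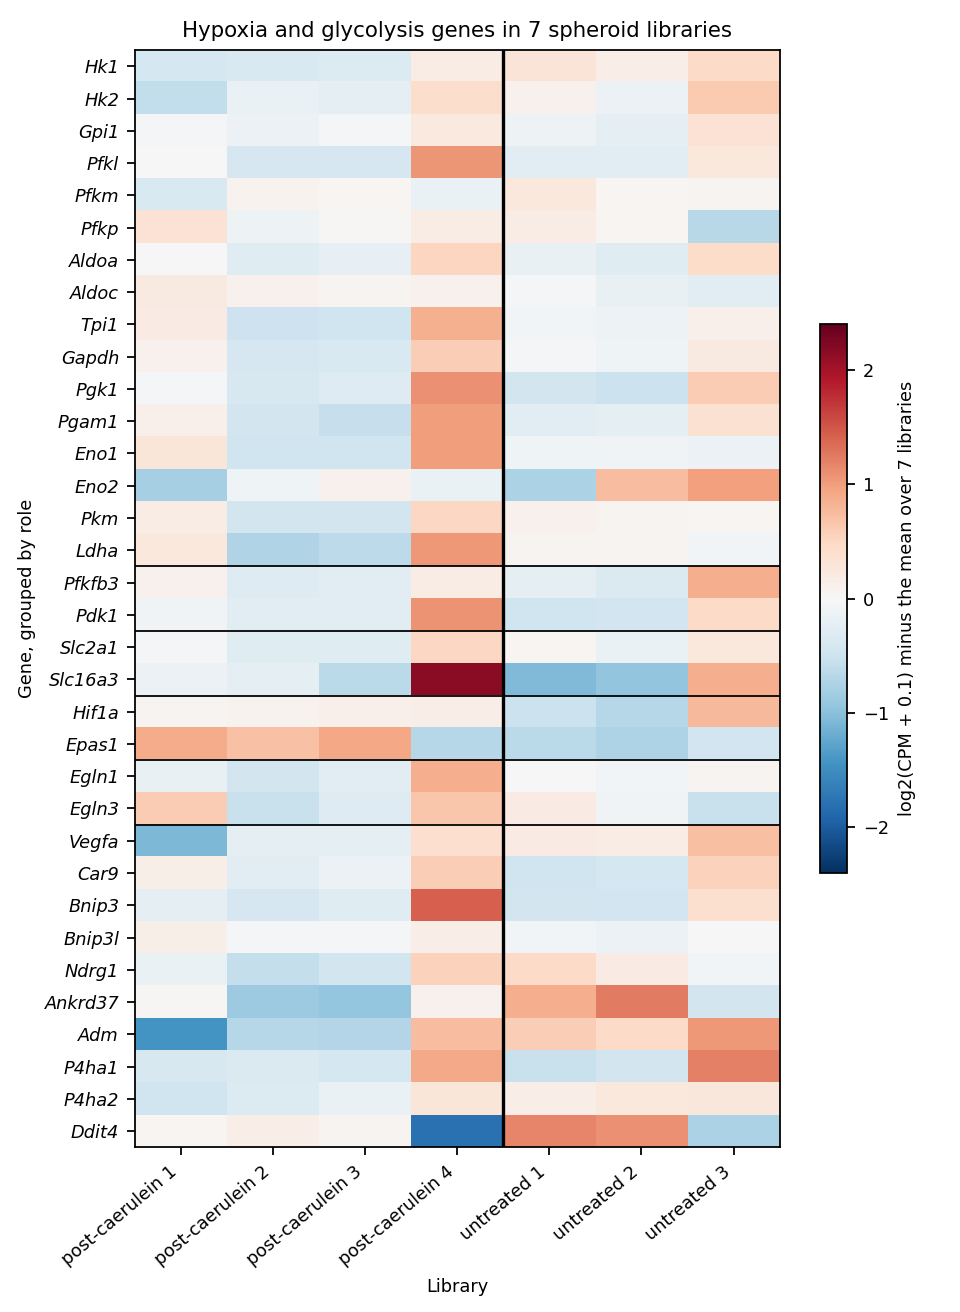
Log2(CPM + 0.1) of each gene minus its mean over the 7 libraries (colour), for the 34 genes (rows, black lines between roles) in post-caerulein 1 to 4 (left) and untreated 1 to 3 (right). The columns of post-caerulein 4 and untreated 3 are red for most genes and blue for Ddit4, while Epas1 is red in post-caerulein 1 to 3 only.

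The promoters of 31 members are in the RefSeq promoter table (GRCm38.p6), which holds 250 bases before and 50 bases after a start site. The core of the hypoxia response element was searched as ACGTG or GCGTG on both strands, where CACGTG counts on each strand. It occurred in at least 1 window of 28 of these 31 genes (90.3%), against 46.7% of all 27025 genes in the table, and ACGTG alone in 23 (74.2% against 21.8%). By window, as genes with several start sites have more of them, it was 36 of 45 member windows (80.0%) against 43.8% of all 32851. Overlapping windows, as for Eno1, Aldoa and Pfkm, were each counted. The members were chosen as hypoxia and glycolysis genes, so a surplus of this motif was built into the choice and is not a result of these data. The comparison set was every promoter, unmatched for expression or base composition. Shown here are the windows of Ddit4, which fell with the block, of Slc16a3 and Bnip3, which were highest in post-caerulein 4 and untreated 3, and of Adm, which was lower in each block, 5′ to 3′ on the gene's strand with the motif letters in capitals. The Ddit4 window lies at chr10:59951721-59952020 (minus), that of Slc16a3 at chr11:120948817-120949116 (plus), that of Bnip3 at chr7:138909457-138909756 (minus) and that of Adm at chr7:110627407-110627706 (plus).
Ddit4: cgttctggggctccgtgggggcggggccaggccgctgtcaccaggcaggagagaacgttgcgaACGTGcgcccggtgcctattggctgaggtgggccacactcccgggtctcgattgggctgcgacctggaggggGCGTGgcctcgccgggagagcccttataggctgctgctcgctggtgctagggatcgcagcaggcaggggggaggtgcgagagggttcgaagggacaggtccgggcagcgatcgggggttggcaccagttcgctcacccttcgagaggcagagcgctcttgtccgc
Slc16a3: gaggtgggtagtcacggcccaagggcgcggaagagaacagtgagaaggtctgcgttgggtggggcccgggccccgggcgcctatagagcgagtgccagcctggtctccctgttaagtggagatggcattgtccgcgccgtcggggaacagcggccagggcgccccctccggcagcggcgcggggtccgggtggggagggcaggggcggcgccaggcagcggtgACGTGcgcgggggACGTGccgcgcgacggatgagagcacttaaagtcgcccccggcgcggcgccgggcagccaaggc
Bnip3: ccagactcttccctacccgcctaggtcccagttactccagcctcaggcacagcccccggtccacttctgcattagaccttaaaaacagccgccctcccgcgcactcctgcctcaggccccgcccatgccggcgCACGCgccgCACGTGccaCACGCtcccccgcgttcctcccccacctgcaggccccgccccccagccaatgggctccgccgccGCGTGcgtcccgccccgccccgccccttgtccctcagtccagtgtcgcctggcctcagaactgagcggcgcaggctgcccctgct
Adm: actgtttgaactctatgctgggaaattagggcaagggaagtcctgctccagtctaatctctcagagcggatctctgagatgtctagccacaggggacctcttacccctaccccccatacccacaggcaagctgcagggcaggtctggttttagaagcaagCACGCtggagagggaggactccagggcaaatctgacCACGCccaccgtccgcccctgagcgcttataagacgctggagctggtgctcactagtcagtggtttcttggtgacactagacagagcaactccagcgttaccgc
Ddit4, which was lowest in post-caerulein 4 and untreated 3, has 2 matches (positions 64 and 136 of the window), and Slc16a3, which was highest there, also has 2 (positions 224 and 237). The Bnip3 window holds 5, and that of Adm holds 2, both read on the reverse strand as CACGC. Matches are letters in a window, not sites of binding.

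A wider list of 82 genes, of which 74 were tested, covers the rest of glycolysis and gluconeogenesis, glucose and lactate transport, pyruvate oxidation, the pentose phosphate and glycogen pathways, the HIF machinery and further HIF targets. With the block 3 of the 74 rose and 1 fell (1.53% of all genes called), and with the group only 0 passed, with 12 at an unadjusted p under 0.05, where 9.5% of all genes were below that value (edgeR quasi-likelihood). By DESeq2 5 of the 74 were called with the group only and 13 with the block, where it called 3.1% and 8.31% of all genes in these models. Angptl4, a lipoprotein lipase inhibitor induced by HIF and by PPARs, rose by 1.38 on the log2 scale with the block (SE 0.18, edgeR quasi-likelihood adjusted p = 0.0231) and stood at 41.8, 30.8, 32.2 and 39.3 CPM in post-caerulein libraries, against 14.3, 16.2 and 11.0 CPM in untreated libraries. Pklr, the pyruvate kinase of liver and red cells, rose by 1.79 ± 0.24 (adjusted p = 0.0273) and was at 49.7, 29.0, 36.7 and 12.1 CPM in post-caerulein and 9.08, 9.84 and 5.22 CPM in untreated libraries. The groups did not overlap for either gene.

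Ak4, a mitochondrial adenylate kinase and HIF target, rose by 0.87 ± 0.12 with the block (adjusted p = 0.0299, edgeR quasi-likelihood). It was at 16.8, 22.1, 19.5 and 85.8 CPM in post-caerulein libraries, against 11.2, 11.4 and 41.1 CPM in untreated libraries, with post-caerulein 4 and untreated 3 on top as for Slc16a3. Bhlhe40, a repressor that HIF induces, fell by 1.28 (SE 0.18, adjusted p = 0.0276), at 141, 166, 140.4 and 233 CPM in post-caerulein and 463, 391 and 373 CPM in untreated libraries. All 4 calls were lost without untreated 1, untreated 2 or post-caerulein 3 and with the close pairs summed, and those of Pklr, Ak4 and Bhlhe40 also without post-caerulein 2. The call of Bhlhe40 was lost without post-caerulein 1 as well.

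By subgroup, 1 of 15 tested genes of glycolysis and gluconeogenesis (Pklr) and 3 of 27 further HIF targets (Ak4, Angptl4 and Bhlhe40) were called with the block by edgeR's quasi-likelihood test. That test called 0 of 5 transporters, 9 genes of pyruvate oxidation, 10 of the pentose phosphate and glycogen pathways and 8 of the HIF machinery, which includes Arnt and Vhl. Among these, DESeq2 with the block called Slc2a2, Slc5a1, Slc16a7, Pdk4 and Rpia. The authors' deposited table has Slc2a2, Slc5a1, Pdk4 and Rpia below a false discovery rate of 0.05. Among glycolysis and gluconeogenesis genes and further HIF targets, DESeq2 with the block also called Hkdc1, Tfrc and Trf (higher) and Bhlhe41 (lower). There the authors' deposited table also has Tfrc and Trf (higher) and Bhlhe41 and Mxi1 (lower) below that rate. These genes were named after their values were seen. Slc2a2 encodes GLUT2, the glucose transporter of beta cells and hepatocytes. It was at 22.6, 14.1, 20.3 and 3.03 CPM in post-caerulein libraries, against 1.31, 1.37 and 1.40 CPM in untreated libraries, so the groups did not overlap. With the block it missed the threshold of the quasi-likelihood test in edgeR (log2 change 3.06 ± 0.57, adjusted p = 0.0543), while DESeq2 called it in both models and the authors' deposited table gives 3.07 with a false discovery rate of 7.11e-08. It was highest in the same post-caerulein 1, 2 and 3 in which the islet markers and Epas1 were highest, and the part of the islet markers in it was not tested. The neuronal glucose transporter gene Slc2a3 reached at most 0.111 CPM in any library.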

How the data were processed

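RNA of 7 pancreatic spheroid libraries was measured by poly-A RNA sequencing (Illumina TruSeq, per the labels). The authors deposited raw counts per gene, made with featureCounts 0.6.1 on GRCm38 (mm10), per the submitters' processing notes; no source used here names the aligner or strand setting. The authors' deposited edgeR table (version 3.2.2, per the submitters' processing notes) gives log2 fold changes, a likelihood ratio score, p-values and false discovery rates, per the file headers.

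Groups and replicate numbers come from the sample titles. Genes were kept by edgeR 4.0.16 (R 4.3.3) with filterByExpr at a minimum count of 10 and total of 15. After TMM scaling, the two-sided robust quasi-likelihood test was run, with Benjamini-Hochberg adjustment over all 16438 genes and a threshold of 0.05, with the group alone or with the block of the authors' table. The procedure was run on simulated data in which all libraries were independent, so that run cannot speak to the close pairs found here. Total counts were 34783738 to 46744497 per library. Limits from 3 counts cover counting error only. CPM use TMM-scaled totals, and TPM use the table's exonic lengths. A second gene ID that also bears the symbol Aldoa, with fewer reads, was not used. The members and gene lists were chosen with earlier results of these data known. Values per library are given for members called in either model or in the authors' table, members with non-overlapping groups and 14 genes that are always given, most others by range. Of the wider list, those called in either model are named. Alternatives were other size factors, filters, DESeq2 1.42.0, a replicate block, summed close pairs, the larger block alone and leaving out each library. Whether the replicate numbers pair the libraries was not settled. Pseudogenes were matched with blastn 2.17.0+.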

Additional observations from a re-analysis of the deposited data

Results flagged for a closer look

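Of the 34 genes, 8 had an outlying post-caerulein library, which in each of the 8 was post-caerulein 4. The rule was a gap to the nearest of the other 3, divided by the range, above Dixon's 95% critical value for 4 samples. Chance flags about 1 in 20 groups, and these genes are not independent of each other. Post-caerulein 4 was high for 7 of them. Slc16a3 was at 47.3 CPM there and 6.72 to 9.53 CPM in the other 3 libraries, Bnip3 at 97.2 against 27.3 to 30.8 CPM, and P4ha1 at 126 against at most 52.9 CPM. Pdk1 was at 141 against 56.2 to 63.6 CPM, Pgk1 at 1179 against 424 to 533 CPM, Egln1 at 95.2 against 38.3 to 45.7 CPM, and Hk1 at 337 against 222 to 238 CPM. Ddit4 was low there, at 72.3 against 257 to 278 CPM. The untreated group of 3 was too small for this rule.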

How the results depend on the processing

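In all, 14 alternatives were run. Over 420 values of single genes, 360 kept their direction and side of the threshold, 27 passed it newly, 24 lost it and 9 changed sign. The median of the members stayed between -0.24 and 0.17 with the group only and between -0.04 and 0.14 with the block. Calls depended on the tool and on the libraries kept, and the cause was not tested.

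With the group only, DESeq2 called 509 genes (3.1% of all), 1 member (Epas1) and 5 of the wider list. Without the low-count filter 23 genes (0.073% of all) and 2 of the wider list were called. In that setting 2 members did not overlap between groups (6.78% of all genes), against 3 with the close pairs summed (15.4%). In the larger block alone the counts were 2247 genes (13.8% of all), 8 members and 25 of the wider list in either model. There 19 of 34 members did not overlap, where 46.5% of all genes did not. With the block, DESeq2 called 1366 genes (8.31% of all), 6 members (Adm, Ddit4, Epas1, Hk1, Pdk1 and Slc16a3) and 13 of the wider list. Without the filter 602 genes (1.91% of all), 4 members (Adm, Ddit4, Hk1 and Slc16a3) and 8 of the wider list were called. The stricter filter left 138 genes (1.1% of all). With the close pairs summed 0 genes, 0 members and 0 of the wider list were called by edgeR.

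Between libraries of the same replicate number, the correlations of deviations were 0.372, 0.141 and -0.21. Libraries of different numbers were not compared in this way, so this check cannot decide whether the numbers pair the libraries. With the replicate block added to the block of the authors' table, 1184 genes (7.2% of all), 7 members and 22 of the wider list were called. With the replicate block and the group only, Pdk1 was at -0.040, Pgk1 at -0.13 and Bnip3 at -0.13 on the log2 scale, opposite in sign to the values without it, and 0 members were called.

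Leaving out 1 library at a time gave, with the group only, 0 to 1149 genes (0 to 6.83% of all), 0 to 1 members and 0 to 13 of the wider list. It left 1 to 12 members without overlap. The 12 were without untreated 3, where 35.4% of all genes did not overlap, and 8 were found without post-caerulein 4, where 18.8% did not. With the block it gave 0 to 2267 genes, 0 to 9 members and 0 to 25 of the wider list. The highest gene counts came without untreated 3 (2267 genes, 13.5% of all) and without post-caerulein 4 (2086, 13%), and 0 genes passed without untreated 1 or untreated 2. Group-only log2 changes ranged from -0.24 to 1.83 for Slc16a3, from -0.10 to 0.73 for Pdk1, from -0.22 to 0.72 for Pgk1, from -0.18 to 0.84 for Bnip3 and from -0.028 to 0.60 for Car9. These turned negative without post-caerulein 4, Car9 (-0.018) also without untreated 1.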
